A study of Mus musculus with 4 samples.

Results

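Stem-like cells were the 383 cells, of 15421 kept in all 4 libraries, that held RNA of Hlf together with RNA of at least 1 of 4 further genes of blood stem cells. A cell was kept when it had at least 500 UMIs (unique molecular identifiers, each marking 1 captured transcript) and at most 20% of them from mitochondrial genes. A kept cell was a member when it had at least 1 UMI of Hlf, at least 1 UMI of Mecom, Mllt3, Procr or Esam, 0 UMIs of Dntt and under 3 UMIs of Pf4. Dntt, the DNA polymerase of lymphoid progenitors, and Pf4, a platelet chemokine, kept lymphoid-primed and megakaryocyte-primed cells out. The rule is read from the same UMI counts as everything else below, so the levels of these 7 genes in the members describe the choice and are no finding.

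The libraries were made with inDrop, a droplet method for single-cell RNA sequencing, from bone marrow of C57BL/6 mice. The marrow was sorted for LSK cells, which lack lineage markers and carry Sca1 (encoded by Ly6a) and cKit. The groups were mice with chronic myeloid leukaemia (CML) without treatment, wild-type (WT) mice without treatment, CML mice given imatinib and WT mice given imatinib, with 1 library each. Imatinib, the kinase inhibitor used against BCR-ABL1, went in by gavage every other day at 400 mg/kg. The course lasted 30 days by 1 label and 4 weeks by another. The sources used here state neither how CML was produced in the mice nor how many mice went into a library.

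Blood stem cells sit at the top of the LSK compartment, divide rarely, and give rise to multipotent and then lineage-committed progenitors. Hlf is a PAR bZIP transcription factor that falls as stem cells differentiate, Mecom encodes the transcription factor EVI1 that stem cells need for self-renewal, and Mllt3 encodes a reader of acetylated histones that helps keep them. Procr and Esam encode surface proteins shared by stem cells and endothelium, the activated protein C receptor and a cell adhesion molecule. In CML, BCR-ABL1 arises in a stem cell, and such stem cells are known to outlive treatment with imatinib.

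Members numbered 214 of 3032 kept cells in the CML untreated library, which is 7.06% (exact binomial 95% interval 6.17 to 8.03%). In the WT untreated library 150 of 3033 kept cells were members, or 4.95% (4.20 to 5.78%). The CML imatinib library had 11 members among 5167 kept cells (0.213%), and the WT imatinib library 8 among 4189 (0.191%). Since each group had only 1 library, no test was made. All intervals here cover counting error only, not the variation between mice.

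Depth moved with these shares. The members had a median of 5940 UMIs in CML untreated and 3595.5 in WT untreated, and the other kept cells had medians of 5100.5 and 3636. In the imatinib libraries the other kept cells had medians of only 1191.5 UMIs in CML and 1486 in WT. After every cell of at least 1000 UMIs was thinned at random to 1000, 40 of 3032 CML untreated cells (1.32%, 0.944 to 1.79%) and 34 of 3033 WT untreated cells (1.12%, 0.778 to 1.56%) still met the rule. At that single depth the intervals of the untreated libraries overlapped. In the thinned imatinib libraries 0 of 3080 CML cells and 1 of 2869 WT cells met it, each with an upper interval bound (0.120% in CML and 0.194% in WT) under the lower bounds of the untreated libraries.

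**Figure D1:**
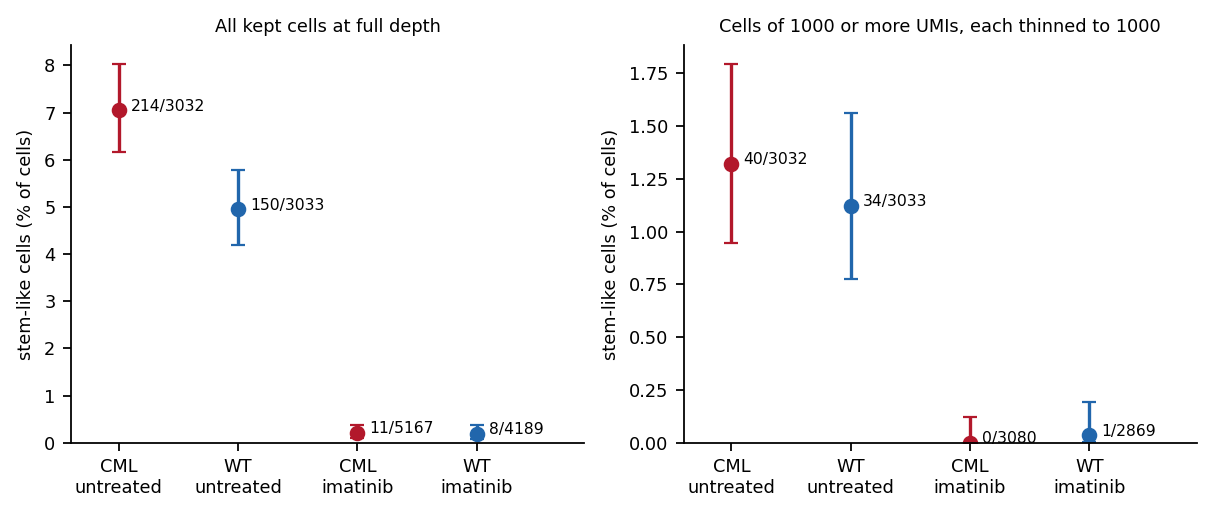
Share of stem-like cells among kept cells (percent, vertical axis) in each library, at full depth on the left and after thinning each cell to 1000 UMIs on the right; bars are exact binomial 95% intervals and the labels give members over cells. At full depth CML untreated stands at 7.06% and WT untreated at 4.95%, while after thinning they stand at 1.32% and 1.12% with overlapping bars.

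Free RNA in droplets can put a single Hlf UMI into a cell that does not express the gene, so the share of Hlf-holding cells was set beside cell classes that should lack it. Hlf had at least 1 UMI in 21.6% of kept cells of CML untreated and in 16.1% of WT untreated. Among cells with at least 2 UMIs of the T cell genes Cd3d, Cd3e and Cd3g it was seen in 3 of 61 CML cells (4.92%, median depth 2639 UMIs) and in 1 of 34 WT cells (2.94%, 1892.5 UMIs). Among cells with at least 20 UMIs of Jchain, a plasma cell gene, it was seen in 1 of 40 CML cells (2.5%, 5170.5 UMIs) and 4 of 92 WT cells (4.35%, 5874.5 UMIs). Members with a single Hlf UMI numbered 73 of 214 in CML untreated and 60 of 150 in WT untreated, and 36 and 25 of them had only a single partner UMI as well. How many of these took the UMI from free RNA was not tested.

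Just outside the rule in the CML untreated library lay 342 cells with Hlf, but no UMI of a partner gene, against 265 in WT untreated. Cells with a partner gene but no Hlf numbered 430 in CML and 359 in WT. The condition on Dntt left out 14 CML and 6 WT cells with exactly 1 Dntt UMI, and 14 CML and 8 WT cells with more. The condition on Pf4 left out 7 in CML and 2 in WT. Inside the rule, Mecom was the most frequent partner gene, seen in 88 of 214 CML and 75 of 150 WT members. Mllt3 was seen in 76 CML and 51 WT members, Esam in 77 and 50, and Procr in 37 and 29. More than 1 partner gene was seen in 58 CML and 47 WT members.

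Genes that took no part in the rule were compared between members and the other kept cells of the same library as CPM, UMIs per 1000000, of UMIs summed over cells. These are descriptions without a test, because the members were chosen on the same cells. Meis1, a homeobox factor of stem cells, stood at 154 CPM in members and 92.2 in other cells of CML untreated, and at 183 in members and 81.5 in other cells of WT untreated. The log2 ratios were 0.74 (0.54 to 0.93) in CML and 1.16 (0.87 to 1.44) in WT. Meis1 was the one marker named for these cells that the rule did not use. It was higher in members in both untreated libraries, though under 2-fold in CML. As 1 gene it does not settle what each member is, so "stem-like" is kept as a name for cells that meet the rule.

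Across 3673 genes measured in both untreated libraries, 17 (0.463%) were at least 2-fold higher in members in both and 22 (0.599%) at least 2-fold lower in both. Here and below, a 2-fold call also needed the higher sum to reach 50 CPM and 30 UMIs. Of the 17, 4 are genes of the rule (Hlf, Mecom, Mllt3 and Esam), and of the 22, 2 are (Dntt and Pf4), which leaves 13 and 20 outside it. Ranked by the smaller of the ratios of both libraries, the first gene outside the rule at 100 CPM was Hes1, a transcriptional repressor downstream of Notch, at 198 CPM in members against 42.8 in other cells of CML (log2 2.21) and 316 against 101 in WT (log2 1.64). Myct1, a gene of stem cells and endothelium, followed with log2 ratios of 1.32 in CML and 1.86 in WT. Gcnt2, a glycosyltransferase, stood at 1.34 in CML and 1.30 in WT. Rgs1, a regulator of G protein signalling, stood at 1.17 and 1.07, and Angpt1, the ligand of the Tie2 receptor, at 0.99 in CML and 1.05 in WT.

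Mycn, the MYC paralogue of early progenitors, had log2 ratios of 1.33 in CML and 1.51 in WT. Of 58 stem cell genes outside the rule, 46 reached 20 CPM and 10 UMIs; 41 of the 46 were above the other cells in both libraries and 2, Apoe and Gfi1b, were below in both. The median log2 ratio of the list was 0.50 in CML and 0.65 in WT, beside 0.04 and 0.08 over all genes of that level. The 2 genes of the sort were little different from the other cells in CML: Ly6a stood at a log2 ratio of 0.23 in CML and 0.26 in WT, and Kit at 0.06 in CML and 0.66 in WT. A UMI of Kit or Ly6a was seen in 63.6% of CML and 75.3% of WT members.

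**Figure D2:**
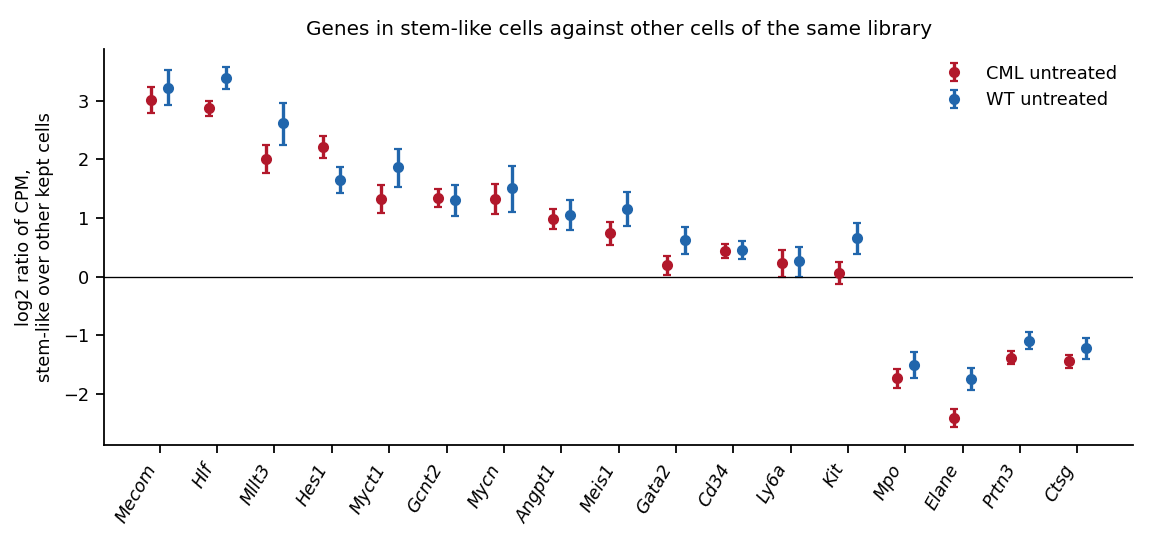
Log2 ratio of CPM, stem-like over other kept cells of the same library (vertical axis), for stem cell and granule genes in CML untreated (red) and WT untreated (blue); bars are exact 95% counting intervals and Mecom, Hlf and Mllt3 belong to the rule. Meis1 stands at 0.74 in CML and 1.16 in WT, and Elane at -2.41 in CML and -1.75 in WT.

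Genes of granulocyte-monocyte progenitors were lower in the members. Elane, neutrophil elastase, had log2 ratios to the other cells of -2.41 in CML and -1.75 in WT, and Mpo, myeloperoxidase, of -1.73 in CML and -1.50 in WT. Prtn3 (proteinase 3) stood at -1.38 and -1.09, Ctsg (cathepsin G) at -1.44 and -1.22, and Irf8, the factor of monocyte and dendritic cell fate, at -2.55 and -2.00. Of 16 genes of this list at the level set above, 14 were lower in members in both libraries and 1 was higher in both. Clec12a, a myeloid lectin receptor, stood at -2.61 in CML and -2.27 in WT, and Ccr2, the chemokine receptor of monocytes, at -2.53 and -2.07.

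Cell cycle genes were fewer per member at equal depth. After thinning to 1000 UMIs, 46.3% of members (39.4 to 53.2%) and 66.6% of other cells had at least 2 UMIs of 29 G2 and M phase genes in CML untreated. In WT untreated these shares were 46.7% (38.5 to 55.0%) and 61.0%. At least 2 UMIs of 29 S phase genes were seen in 69.2% of members and 78.2% of other cells in CML, and in 62.0% and 76.0% in WT. The shares in members thus lay below those in other cells in both libraries, with intervals apart. Mki67, a gene of dividing cells, had at least 1 UMI in 3.74% of thinned CML members and 8.94% of other CML cells, against 9.33% of thinned WT members and 9.64% of other WT cells.

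**Figure D3:**
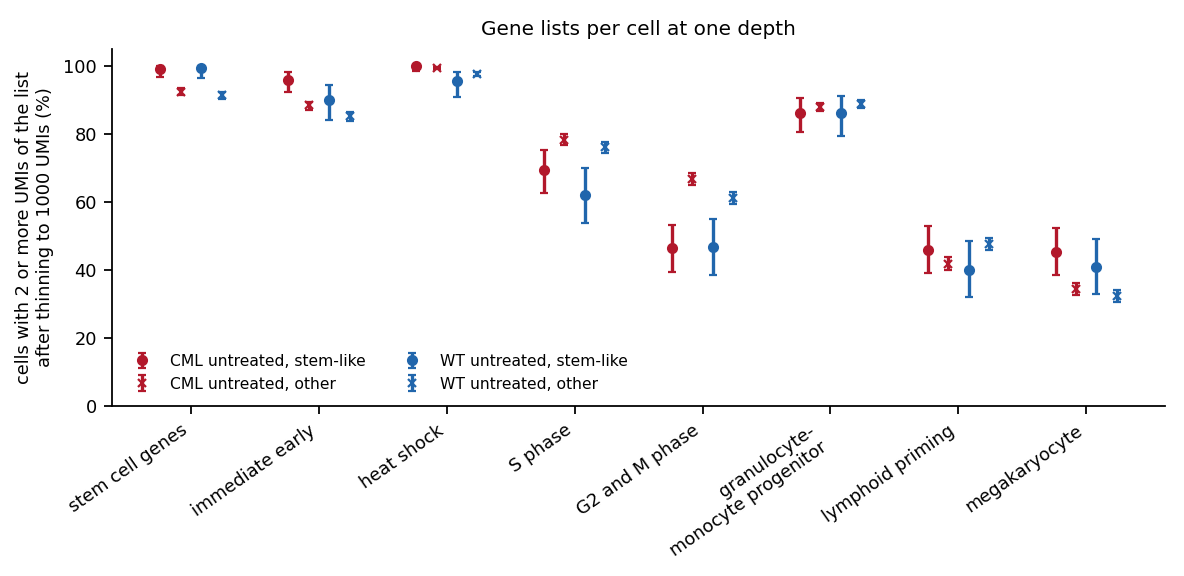
Share of cells (percent, vertical axis) with at least 2 UMIs of each gene list after thinning to 1000 UMIs, for stem-like (points) and other cells (crosses) of CML untreated (red) and WT untreated (blue), with exact binomial 95% intervals. G2 and M phase genes were seen in 46.3% of CML and 46.7% of WT stem-like cells, against 66.6% and 61.0% of the other cells.

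The members were not all alike. Those with at least 2 partner genes had less Elane RNA than those with a single one, 37.9 against 257 CPM in CML and 94.5 against 486 in WT. Hes1 stood at 198 CPM over all CML members and 316 over all WT members. Members with an Esam UMI held 428 in CML, the highest of the subsets by partner gene, and 245 in WT, the lowest of them. Each of these subsets was cut on the same UMIs, and a single cell can weigh on it. Of the Elane UMIs, 1 cell held 136 of 320 in CML members and 1 cell held 103 of 229 in WT members. Mecom was the only partner gene seen in each of these cells, so both count among the members with a single one.

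At least 10 UMIs of genes of another cell class were held by 41 of 214 CML members and 16 of 150 WT members. For granulocyte-monocyte progenitor genes this was 34 in CML and 14 in WT, and for erythroid genes 6 in CML and 1 in WT. The deepest CML member, of 48082 UMIs, held 45 UMIs of Gata1, the erythroid master factor, 71 of Car1 (carbonic anhydrase 1) and 26 of Mllt3. A CML member of 7044 UMIs held 90 of the 91 Gzmb UMIs of its group and 54 of Cpa3, a mast cell protease. A WT member of 7585 UMIs held 836 UMIs of Iglc1, 400 of Igha and 313 of Jchain, genes of a plasma cell. Doublets were not called, so cells that share a droplet and cells that express both programmes cannot be told apart here.

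The main comparison set the 214 CML members against the 150 WT members, both untreated. Of 4143 genes, 95 (2.29%) were at least 2-fold higher in CML and 55 (1.33%) at least 2-fold lower, while the median log2 ratio over 7435 genes at 20 CPM was -0.02. In the other kept cells 21 of 3824 genes (0.549%) were higher and 15 (0.392%) lower. The sums differ in size, with 1627654 UMIs in CML and 624382 in WT members, against 19655454 in CML and 12532755 in WT other cells, and the part of this in the counts was not tested. Of 3628 genes measured in both, 14 were higher in both members and other cells, 8 lower in both, and 0 went opposite ways. Many calls rest on few cells: 29 of the 95 and 8 of the 55 also passed without the top cell of each gene, without members holding at least 10 UMIs of genes of another class, and in both the first 1516 and the last 1516 columns of the CML library. The 29 included 4 of the 4 called heat shock genes and 8 of the 10 called immediate early genes. Another filter kept cells with under 3 UMIs over the pooled lists of plasma, T and NK, B, neutrophil, and mast cell and basophil genes. The granulocyte-monocyte progenitor and erythroid lists were not part of it. Its mast cell list holds Gata2, also on the stem cell list and seen in 48.6% of CML and 50% of WT members. This filter left 63 CML and 54 WT members, and 32 of the 95 and 1 of the 55, Ly6a, were called again. At that size 61 of the 95 and 50 of the 55 no longer reached 50 CPM and 30 UMIs. All 4 heat shock and all 10 immediate early genes were among the 32.

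**Figure D4:**
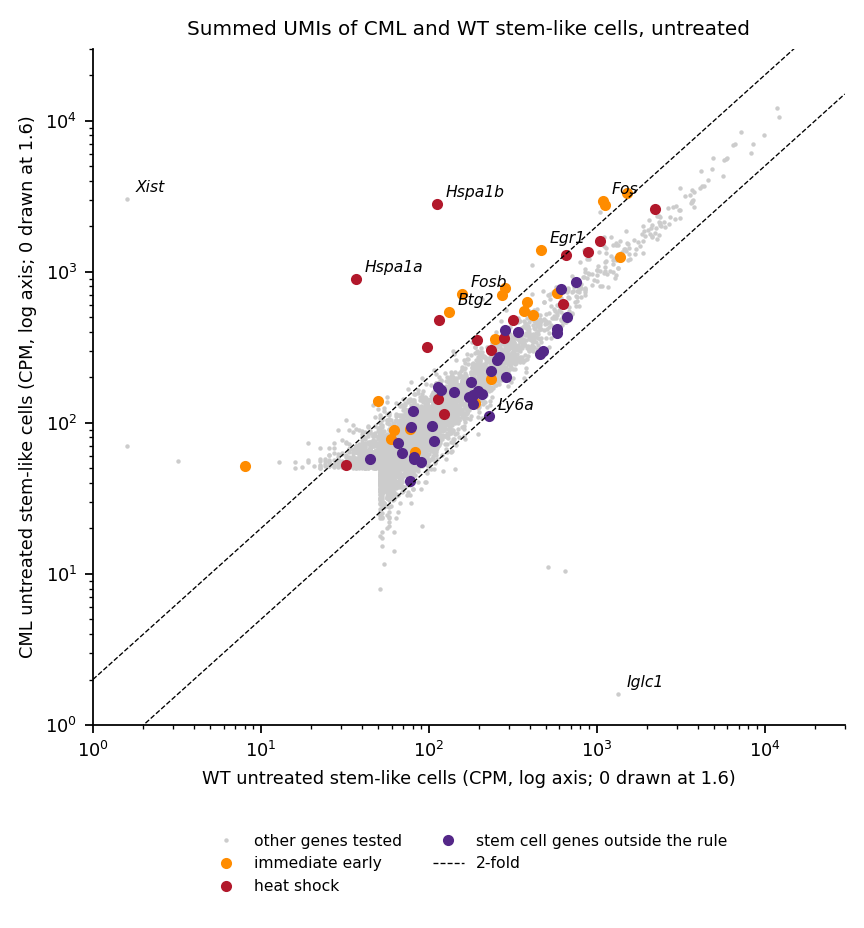
CPM of each gene that reached 50 CPM and 30 UMIs in either library, in CML untreated stem-like cells (vertical axis) against WT untreated stem-like cells (horizontal axis), both log axes, with 0 drawn at 1.6; dashed lines mark 2-fold. Hspa1b (2811 CPM in CML and 112 in WT) and several other heat shock and immediate early genes lie above the upper line, while the stem cell genes that reached that minimum lie between the lines apart from Ly6a.

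Heat shock genes gave the largest upward ratios after Xist among genes at 100 CPM and 50 UMIs. Hspa1b, an inducible HSP70 chaperone gene, had 2811 CPM in CML members (2731 to 2894) and 112 in WT members (87.4 to 142), a log2 ratio of 4.65 (4.31 to 5.01). It was seen in 136 of 214 CML members and 10 of 150 WT members, and at equal depth in 50.5% of CML and 3.33% of WT members. Of the 70 WT UMIs, 40% came from a single cell, and without the top cell of each library the log2 ratio was 5.29. Its neighbour Hspa1a stood at 893 CPM in CML and 36.8 in WT (log2 4.60, 4.01 to 5.26), in 103 CML and 11 WT members. The genes lie at chr17:34956436-34959238 (Hspa1b) and chr17:34969190-34972156 (Hspa1a) of GRCm38, both on the minus strand, and are nearly identical, so reads may be split between them and each single value is uncertain.

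Both other called heat shock genes belong to the same chaperone cycle. Dnajb1, the J-domain partner of HSP70, had 476 CPM in CML and 115 in WT members (log2 2.05, 1.70 to 2.41). Hsph1, an HSP110 nucleotide exchange factor, had 319 in CML and 97.7 in WT (1.71, 1.32 to 2.11). Of 16 heat shock genes measured, these 4 were past 2-fold upward and 0 downward. The list's median log2 ratio was 0.60 in members and 0.62 in other cells. The summed level of the list was 13801 CPM in CML and 7134 in WT members, against 16078 in CML and 8479 in WT other cells.

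The 200 bases before the start of Hspa1a and Hspa1b, from the RefSeq annotation of GRCm38.p6, are shown because these genes gave the largest ratios of the heat shock list and share their control region almost letter for letter. Capitals mark GAANNTTC, the core of a heat shock element, which reads the same on both strands.
Hspa1a, chr17:34972157-34972356, minus strand: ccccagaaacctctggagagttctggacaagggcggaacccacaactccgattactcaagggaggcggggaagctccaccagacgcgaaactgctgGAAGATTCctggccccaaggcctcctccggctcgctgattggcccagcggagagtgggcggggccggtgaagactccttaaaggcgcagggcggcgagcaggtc
Hspa1b, chr17:34959239-34959438, minus strand: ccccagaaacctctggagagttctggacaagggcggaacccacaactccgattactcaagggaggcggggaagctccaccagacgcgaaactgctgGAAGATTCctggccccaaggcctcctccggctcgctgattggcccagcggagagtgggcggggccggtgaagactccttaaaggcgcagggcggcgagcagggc
The stretches are identical at 199 of 200 bases, and in each the motif begins 104 bases before the start. It occurs in 5.36% of 32851 promoters of this length. It was found in 2 of the 4 called heat shock genes, the near-identical Hspa1a and Hspa1b. Of 9 measured heat shock genes under 2-fold whose promoter was examined, 4 held it (Dnaja1, Fkbp4, Hspd1 and Hspe1). The stretches of Hspd1 and Hspe1 overlap on opposite strands and hold the same site, which is thus counted for both genes. Only GAANNTTC was searched, and no other arrangement of a heat shock element. Whether such elements separate these groups was therefore not tested.

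Immediate early genes, which cells switch on without new protein synthesis when signals or stress reach them, were the other large group. Of 22 measured, 10 were at least 2-fold higher in CML members and 0 were lower. The median log2 ratio of the list was 0.56 in members and 0.42 in other cells. Their summed level was 18123 CPM in CML and 9235 in WT members, against 11788 and 7525 in the other cells. At equal depth a member held a median of 19 of their UMIs per 1000 in CML and 9 in WT (interquartile 9 to 31.75 in CML and 4 to 15 in WT). The spread between single cells was wide, and the quartile ranges overlapped.

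Fos, which pairs with Jun proteins to form the factor AP-1, had 2946 CPM in CML and 1086 in WT members (log2 1.44, 1.32 to 1.56) and was seen in 191 CML and 112 WT members. Its relative Fosb had 712 in CML and 157 in WT (2.18, 1.88 to 2.49), in 164 and 34 members. Jun, its best known partner, stood at 2776 in CML and 1116 in WT (log2 1.31), and Jund at 697 and 272 (1.36). These AP-1 genes were all above WT members by more than their counting intervals. Junb, at 629 CPM in CML and 384 in WT (log2 0.71), was higher in CML members as well but stayed under 2-fold.

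Egr1, a zinc finger factor downstream of ERK signalling, had 1398 CPM in CML and 466 in WT members (log2 1.59, 1.41 to 1.77). Dusp1, a phosphatase that shuts off MAP kinases, had 781 in CML and 285 in WT (1.45), and Dusp5, an ERK phosphatase of the nucleus, 140 in CML and 49.6 in WT (1.50). Of 6 ERK feedback genes measured, Egr1 and Dusp5 were the 2 past 2-fold, with a list median of 0.38. Zfp36, which brings about decay of AU-rich mRNAs, had 3302 CPM in CML and 1518 in WT (1.12), and Atf3, a stress factor, 51.6 and 8.01 (2.69). Ier3, an early gene tied to survival, did not move with them, at a log2 ratio of -0.25. Nr4a1 was also lower in CML members, at 135 CPM against 187 in WT, as were Ier5 (63.9 against 83.3) and Rgs1 (1260 against 1371). Of the 24 immediate early genes at 20 CPM and 10 UMIs, 20 were above 0.

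Of the 10 called immediate early genes, 9 had a promoter that was examined, all but Egr1. Of these 9, Btg2 and Dusp1 held TGACGTCA, the cAMP response element, in the 200 bases before the start. It occurs in 1.47% of 32851 promoters. Both are shown, with that motif, which reads the same on both strands, in capitals.
Btg2, chr1:134079156-134079355, minus strand: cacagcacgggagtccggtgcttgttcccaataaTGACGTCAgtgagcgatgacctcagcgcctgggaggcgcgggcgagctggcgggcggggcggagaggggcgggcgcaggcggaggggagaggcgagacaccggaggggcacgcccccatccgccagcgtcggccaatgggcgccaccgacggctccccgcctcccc
Dusp1, chr17:26508473-26508672, minus strand: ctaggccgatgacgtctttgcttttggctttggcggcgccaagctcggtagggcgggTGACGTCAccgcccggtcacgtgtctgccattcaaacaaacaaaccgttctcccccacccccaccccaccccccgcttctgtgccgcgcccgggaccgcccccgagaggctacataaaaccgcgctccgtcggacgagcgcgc
The motif begins 166 bases before the start of Btg2 and 143 before that of Dusp1. Among 10 measured immediate early genes under 2-fold it was found in 1, Ppp1r15a. The CArG box (CCWWWWWWGG, W being A or T) was searched as well. It was found in 2 of the 9, Dusp5 and Zfp36, and in 0 of the 10, beside 1.18% of 32851 promoters. GAANNTTC was found in 1 of the 9, Jun, and in 0 of the 10. Whether any of these motifs separates the groups was not tested.

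**Figure D5:**
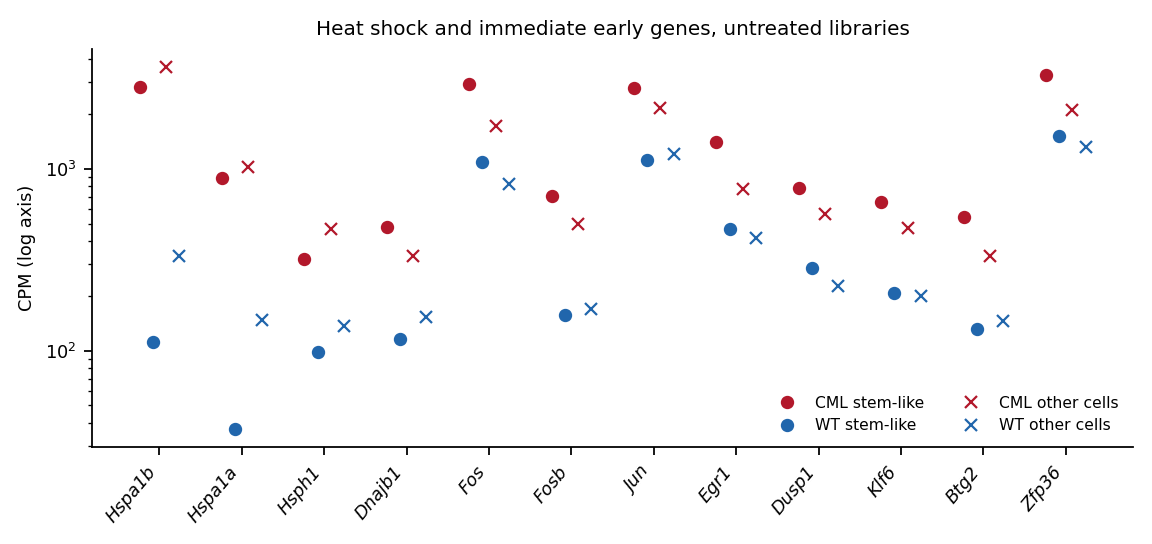
CPM (vertical log axis) of heat shock and immediate early genes in CML and WT untreated stem-like cells (points) and in the other kept cells of both libraries (crosses). Hspa1b stands at 2811 in CML and 112 in WT stem-like cells, and at 3652 in CML and 333 in WT other cells.

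Among genes of quiescence and cell cycle brakes, Btg2, also counted above as an immediate early gene and an antiproliferative cofactor of mRNA deadenylation, had 542 CPM in CML and 131 in WT members (log2 2.04, 1.72 to 2.39). Klf6, a zinc finger factor, had 659 in CML and 208 in WT (1.66), and Klf2, a factor of quiescence in lymphocytes and endothelium, 187 and 78.5 (1.26). Of 16 genes on that list measured, these 3 were higher and 0 lower. Of 6 BCL2 family genes measured, 2 were higher and 0 lower. Mcl1, an anti-apoptotic BCL2 protein that stem cells depend on, had 1110 CPM in CML and 413 in WT (1.43, 1.24 to 1.62), and Bid, a pro-apoptotic relative, 90.9 and 36.8 (1.30).

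Of the STAT5 targets, a pathway that BCR-ABL1 is known to switch on, Mcl1 and Osm (oncostatin M, 96.5 CPM in CML and 35.2 in WT, log2 1.45) were the 2 of 9 past 2-fold, and the list's median was 0.36. Of 7 NF-kB feedback genes 1, Nfkbiz, was past 2-fold (1.06). Of 14 genes known from CML stem cells 1 was, Cd69, an activation marker, at 224 CPM in CML and 107 in WT (log2 1.06). Il1r1, the interleukin 1 receptor, was the 1 of 7 cytokine receptor genes past 2-fold, at 54.7 CPM in CML and 16.0 in WT (1.77, 0.83 to 2.88). None of the 2 measured kinase targets of imatinib was: Kit had 155 CPM in CML and 208 in WT members, and Abl1 126 in CML and 123 in WT.

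Stem cell genes themselves were close to each other in CML and WT members. Of 34 measured outside the rule, 0 were at least 2-fold higher and 1, Ly6a, at least 2-fold lower, with a list median of -0.25 in members and -0.03 in other cells. Ly6a, which encodes Sca1, had 111 CPM in CML and 227 in WT members (log2 -1.04, -1.37 to -0.71). The other cells gave a ratio of -1.01. In members the ratio came under 2-fold without the top cell of each library (-0.96) and without members holding at least 10 UMIs of genes of another class (-0.77). It did so against the last 1516 CML columns alone (-0.71) as well, and was -1.03 with the limit of 3 UMIs over the pooled lists. Of the further genes named here, Atf3, Dusp5, Nfkbiz, Cd69, Il1r1, Hk2, Scaf4, Rtp4, Irf8, Ighm, Reep5, Hist1h2bc, Atg12 and Trim35, like the erythroid and plasma cell genes, also missed at least 1 of those settings. Hes1 stood at 198 in CML and 316 in WT members (-0.67, -0.93 to -0.41) and Meis1 at 154 and 183 (-0.25, -0.57 to 0.08). The interval of Meis1 includes 0, and that of Hes1 lies under 0.

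Vwf, von Willebrand factor, a gene of platelet-biased stem cells, had only 15 UMIs in CML and 18 in WT members (log2 -1.65, -2.74 to -0.57), and Cdkn1c, the CDK inhibitor p57 of quiescent stem cells, 14 and 13 (-1.28, -2.47 to -0.07). Both were too low for the 2-fold call. The rule genes had log2 ratios of -0.26 (Hlf), -0.30 (Mecom), -0.26 (Mllt3) and -0.68 (Procr), which the choice of members and its dependence on depth also touch.

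Cell cycle genes did not differ by 2-fold between the groups. None of 23 S phase genes and none of 25 G2 and M phase genes measured was past 2-fold in either direction, with medians of 0.06 and -0.24. Top2a, the topoisomerase of dividing cells, had 276 CPM in CML and 391 in WT members (log2 -0.50, -0.73 to -0.27). Myc stood at 633 in CML and 484 in WT (0.39, 0.20 to 0.58). Of 8 D cyclin and CDK genes 0 were past 2-fold, and of 12 glycolysis genes 1 was, Hk2 (hexokinase 2, log2 1.11).

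Interferon genes leaned lower in CML members. Of 11 type I interferon genes measured, 1 was at least 2-fold lower, Rtp4, a chaperone induced by interferon, at 63.9 CPM in CML and 128 in WT (2.01-fold lower), and 0 were higher. The list's median was -0.48 in members and -0.29 in other cells. The genes of MHC class I and II (0 of 7 past 2-fold, median 0.15), of TGF-beta and BMP signalling (0 of 6), of Notch and Wnt signalling (0 of 4, median -0.38) and of niche adhesion (0 of 10) gave no calls.

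Among genes lower in CML members outside the lists, Trim27, a ubiquitin ligase, had 49.8 CPM in CML and 144 in WT (log2 -1.53, -1.99 to -1.09). Prdx4, the peroxiredoxin of the endoplasmic reticulum, had 47.9 and 122 (-1.34), and Ctdsp2, a phosphatase of the RNA polymerase II tail, 84.2 and 197 (-1.23). These 3 were among the 8 lower genes that also passed the 4 other settings named above. None was called with the limit of 3 UMIs over the pooled lists. There Trim27 stood at -1.75 and Prdx4 at -1.45, both under 30 UMIs, and Ctdsp2 at -0.94. Reep5 stood at -1.13, Hist1h2bc at -1.07, Atg12 (autophagy) at -1.08, Rraga (a RAG GTPase of the mTORC1 pathway) at -1.11 and Trim35 at -1.08. Among higher genes, Scaf4, an RNA-binding protein of transcription termination, had 104 CPM in CML and 32.0 in WT (1.71, 1.03 to 2.45).

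Genes of other cell classes moved in a few cells. Iglc1 had 0 UMIs in CML and 836 in WT members, at least 726-fold lower against a floor of 3 counts in the CML members, but all of them were in 1 WT cell. That cell also held 99.3% of the Igha UMIs and 98.4% of the Jchain UMIs of WT members, and without the top cell of each library the log2 ratio of Igha was 0.20. Of 6 plasma cell genes measured 4 were lower and 0 higher, with a summed level of 252 CPM in CML and 2784 in WT members; Mzb1, Iglc1, Iglc2 and Tnfrsf17 were at 0 in CML, and Sdc1 and Tnfrsf17 in WT members. Of 10 erythroid genes measured, 5 were higher in CML (Gata1, Car1, Tfrc, Aqp1 and Mt2), and the list's median was 0.91 in members and 0.13 in other cells. Its summed level was 1708 CPM in CML and 1285 in WT members, and 34.1% of the Gata1 UMIs of CML members were in 1 cell. Of the 22 genes of the list, 0 were at 0 in CML members and 5 in WT members. Irf8 was the 1 of 12 granulocyte-monocyte progenitor genes past 2-fold, at 15.4 CPM in CML and 52.9 in WT (log2 -1.78), with a list median of -0.40. Satb1, a chromatin organiser of lymphoid progenitors, stood at 181 CPM in CML and 96.1 in WT (0.92), and the lymphoid list had 1 gene lower, Ighm, and 0 higher of 8. The part of these few cells in the ratios of other genes was not tested beyond the settings named.

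The ratio between CML and WT was also set against that in the other cells. A gap of at least 1 between the log2 ratios, with at least 50 UMIs in each of the 4 sums, was seen for 14 of 2429 genes (0.576%), 2 above (0.0823%) and 12 below (0.494%). The 2 above were Hspa1b and Igkc, an immunoglobulin light chain, whose log2 ratio was -0.30 in members and -1.80 in other cells (difference 1.50, 1.13 to 1.87), so narrower in members. Hspa1b was wider in members, with a log2 ratio of 4.65 in members and 3.45 in other cells, a difference of 1.19 (0.85 to 1.54). The levels show that the members were lower than the other cells in both libraries (2811 against 3652 CPM in CML and 112 against 333 in WT). For Dnajb1 the difference was 0.94, for Btg2 0.86 (0.53 to 1.20), for Egr1 0.69 (0.51 to 0.87) and for Fosb 0.61 (0.31 to 0.92). For Egr1 the CML members were above the other CML cells, 1398 against 775 CPM, whereas WT members and other WT cells stood at 466 and 416.

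Satb1 gave a difference of 0.91 (0.50 to 1.31), since other cells stood at 176 CPM in CML and 175 in WT. At the other end, Cpa3, a mast cell protease gene, gave -2.05 and Ctsc, the protease that activates granule enzymes, -1.66. Cpa3 stood at a log2 ratio of -0.53 in members, while mast cell genes were 5 of 6 past 2-fold higher in the other cells of CML. The differences of Cipc, Ctnnd1, Dbf4, Trp53bp1, Sord and Slc25a30 were the next lowest.

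The untreated libraries differ in sex markers and in depth as well as in genotype. Xist, the RNA of the inactive X chromosome, was seen in 205 of 214 CML members and 0 of 150 WT members, with 3044 CPM in CML, at least 634-fold higher against a floor of 3 counts in WT members. RNA of genes on the Y chromosome was seen in 29 CML and 56 WT members. Of the 29 CML members, 28 also held Xist, while 0 WT members held both. Genotype, the sex of the mice and any other difference between these libraries, such as their preparation, cannot be told apart here.

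Within the CML library, the first 1516 columns had a median of 7834 UMIs per kept cell and the last 1516 a median of 3891.5. The 95 members of the last columns, with a median of 3476 UMIs, are close in depth to the WT members. Their levels were 2969 CPM for Hspa1b, 3174 for Fos, 1348 for Egr1 and 139 for Ly6a, against 2763, 2876, 1414 and 102 in the 119 members of the first columns. In the WT library the first 1516 and the last 1517 columns had 63.9 and 171 CPM of Hspa1b, 1087 and 1084 of Fos, 398 and 549 of Egr1 and 218 and 239 of Ly6a. For these 4 genes the gap between the CML and WT libraries was larger than that between the stretches of either. Stretches of 1 library do not show the variation between libraries or mice. Over all genes, the last CML columns against WT gave 87 higher and 118 lower, in place of 95 and 55. The part of depth in the ratios was not tested.

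By number of Hlf UMIs, the summed immediate early level was 14197 CPM in CML members with 1, 19185 with 2 and 20280 with 3 or more. In WT members it was 9666, 8831 and 9213. Every CML class lay above every WT class. Hspa1b stood at 2002, 4387 and 2819 CPM in the same CML classes and at 77.4, 200 and 26.4 in the WT classes, again apart. The classes are cut on a gene of the rule within the same libraries, so they are no repeats of the comparison. Their median depth was 4314, 4836 and 7389 UMIs in CML and 3426, 3762 and 3641 in WT.

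The imatinib libraries held too few members for a reading gene by gene. The 11 CML imatinib members ranged from 586 to 49460 UMIs, and 9 of them had a single Hlf UMI. The 5 deepest held 3 to 17 UMIs of Gata1 each, and the sixth held 72 UMIs of Mpo and 78 of Elane. The 8 WT imatinib members ranged from 508 to 2415 UMIs, and none of them held a Meis1 UMI. In CML imatinib 1 of the 11 did. Meis1 therefore does not bear out the label in these libraries, where the 19 cells are cells that meet the rule. In WT imatinib members 3 counts equal 295 CPM, above the 183 CPM of Meis1 in WT untreated members, so its absence there says little.

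Between CML imatinib and WT imatinib members, 263 of 1062 genes (24.8%) were past 2-fold, and with Hlf at 2 or more UMIs this became 13. The comparison rests on 153243 UMIs in CML and 10165 in WT, mostly from the deepest CML cells. Fos had 0 UMIs in CML imatinib and 2 in WT imatinib members, and Hspa1b 14 and 2. The summed immediate early level was 450 CPM in CML imatinib (69 UMIs) and 3050 in WT imatinib (31 UMIs), both under those of the untreated members. No statement on imatinib in stem-like cells can be drawn at this depth.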

How the data were processed

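Each of the 4 libraries was deposited as a matrix of genes by cells. Its values are a normalized signal that the authors deposited, with nearly the same total in every cell (median 2839.18 in each library, lowest 2788.73). Partek 8.0, Bowtie 1.1.1 and the build GRCm38 (mm10) appear in the submitters' processing notes, with no role stated for any. Dividing each cell's values by its smallest non-zero value gave the UMIs back, whole within 0.02 for 100% of entries. Cells were taken by column position, because cell names repeat and each header holds 1 name more than the columns. WT untreated and WT imatinib share 1135 names, 39.6% and 20.4% of their names; other pairs share 80 to 340. Expression of same-named cells was not alike (mean correlation -0.0019 or -0.0015).

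UMIs of members, 1627654 in CML untreated, 624382 in WT untreated, 153243 in CML imatinib and 10165 in WT imatinib, were summed per gene and scaled to CPM. Ratios have exact conditional Clopper-Pearson 95% intervals. A gene was called at 2-fold if the higher library reached 50 CPM and 30 UMIs; a gene at 0 was set to 3 counts (1.84 CPM in CML untreated and 4.80 in WT untreated members). No test was possible with 1 library per group. Named genes were the 12 highest and 12 lowest of the called genes at 100 CPM and 50 UMIs, with 10 CPM added for ranking, the 8 at each end of the difference between members and other cells, the 12 highest and 8 lowest of members over other cells, the stem cell genes, and up to 4 of each list. Further genes, such as Junb, Ier3, Abl1, Top2a and Myc, were picked after their values were seen. The 34 gene lists and the members were chosen with earlier results of these data known. Python 3.11.15, numpy 2.4.6, scipy 1.17.1, matplotlib 3.10.9, R 4.3.3 and edgeR 4.0.16 (TMM alternative only) were used. Alternatives were scaling, thinning, cell filters, the rule and call limits.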

Additional observations from a re-analysis of the deposited data

How the results depend on the processing

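No paired analysis was possible because each group has 1 library. Shares moved with depth and rule: CML untreated 1.32% (thinned to 1000 UMIs), 0.495% (to 500), 4.65% (Hlf at 2 or more) and 8.21% (no Dntt or Pf4 condition); WT untreated 1.12%, 0.396% and 2.97% under the first 3; CML imatinib 0%, 0.0581% and 0.0387%; WT imatinib 0.0349% and 0.0716% when thinned. The 95 higher genes became 59 thinned, 154 with Hlf at 2 or more, 38 at 100 CPM and 346 at 20 CPM and 10 UMIs. They became 146 with other classes left out, meaning cells with 3 or more UMIs over the pooled lists named above. The 55 lower genes became 83 without ribosomal, mitochondrial and haemoglobin genes, 15 thinned, 34 with other classes left out, 16 at 100 CPM and 234 at 20 CPM and 10 UMIs. In settings added after seeing the data they became 118 (last 1516 CML columns) and 98 (first 1516). Of the calls, thinning shared 23 higher and 6 lower with the 95 and 55, and leaving out other classes 32 and 1. Higher genes were 63.3% of the calls, 79.7% thinned, 73.7% with Hlf at 2 or more, 81.1% with other classes left out and 42.4% in the last 1516 CML columns. The 14 differences past 1 became 23 (mean of single-cell CPM), 0 (thinned) and 6 (other classes left out). The 263 imatinib calls became 736 with TMM, 5 thinned, 156 at 1000 UMIs, 13 with Hlf at 2 or more, 13 without the deepest 5% of cells and 119 with other classes left out. With other classes left out (63 CML and 54 WT members remain), Jchain turned to 1.03, Atg12 to 0.84 and the differences of Igkc, Cpa3 and Ctsc to -0.53, 0.15 and 0.25; without its top cell Igha turned to 0.20. The cause was not tested. Log2 values of named genes stayed inside their own counting interval in 439 of 520 alternatives. Depth limits calls on genes under 50 CPM.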

Other observations

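Per cell at 1000 UMIs, genes of quiescence and cell cycle brakes were seen with at least 2 UMIs in 77.6% of CML members and 59.1% of other CML cells, and in 56.7% of WT members and 48.4% of other WT cells. Megakaryocyte genes were seen likewise in 45.3% and 34.4% of CML members and other CML cells, and in 40.7% and 32.2% of WT members and other WT cells. Lymphoid priming genes were seen in 45.8% of CML members and 41.7% of other CML cells, against 40.0% of WT members and 47.6% of other WT cells. The mean number of immediate early UMIs was 22.3 in CML members and 14.9 in other CML cells, and 10.9 in WT members and 9.57 in other WT cells. The heat shock list ran the other way, with 14.1 UMIs in CML members and 16.0 in other CML cells, and 6.64 in WT members and 7.99 in other WT cells. CML members with a Procr UMI had the highest summed immediate early level of the subsets by partner gene, 25058 CPM against 7594 in WT members with a Procr UMI. Procr is a gene of the rule, and these subsets held 37 CML and 29 WT members.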
